A study of Pinus tabuliformis with 21 samples.

Results

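Foliage of the Chinese pine Pinus tabuliformis was compared between 1 d and 3 d of ultraviolet-B irradiation, with 3 libraries at each time, across all expressed gene models. The 6 libraries were chosen by their labels from the 21 of the series, and 18265 of 84525 gene models had enough counts to be tested. Seedlings aged 2.5 years stood under fluorescent greenhouse lamps, to which UV-B lamps added 280 µW/cm2 between 280 and 320 nm, strongest at 306 nm. UV-C lamps gave other seedlings 28 µW/cm2 between 230 and 270 nm, strongest at 254 nm. Both bands were sampled after 1, 3 and 7 d, and the control is a 0 h group with no added ultraviolet light. The study used 180 seedlings in treatment groups of 20, and each group analysed here holds 3 libraries of poly(A) RNA. No unirradiated seedlings were sampled at 1 d or 3 d, so the step from 1 d to 3 d spans time as well as added exposure. The labels do not say how many seedlings made a library or whether replicates came from separate seedlings. The p-values therefore measure spread between libraries, which may be technical, and those of edgeR pool this spread over all 21.

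Plants perceive UV-B, a part of sunlight, through the photoreceptor UVR8, which in Arabidopsis acts with COP1 and the transcription factor HY5 to raise transcripts for flavonoid synthesis, DNA photorepair and antioxidant defence. Strong UV-B also damages DNA, proteins and photosystems and evokes wound and defence responses. Responses to continued exposure commonly divide into transcripts that peak early and subside and transcripts that stay raised while sunscreen compounds accumulate in the epidermis. Gene models in the count table come without names, so genes of these pathways and markers of needle cell types could not be looked up. Genes are therefore described by behaviour, and 4 are followed by identifier.

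Assigned counts totalled 6628851 to 7637231 per library at 1 d and 7054893 to 7545474 at 3 d, within the 6177212 to 8560163 of the whole series. Gene models with at least 1 count numbered 25096 ± 476 (SD, n = 3) at 1 d and 25071 ± 166 at 3 d. The biological coefficient of variation, the replicate spread beyond counting error, was 32.6% at 1 d and 30.2% at 3 d, against 13.8% in the control. Over genes, log2-CPM (CPM, the count scaled to a common library total, on a log2 scale) correlated at 0.942 to 0.951 between replicates of 1 d, at 0.941 to 0.967 between replicates of 3 d and at 0.906 to 0.945 between libraries of different days. The days therefore overlapped in this measure, since the best-matched pair across days, replicate 1 of 1 d with replicate 3 of 3 d, was as alike as most replicates. Replicate 1 of 3 d was the irradiated library of the 6 most like the control mean, with a correlation of 0.917, and replicate 2 of 1 d the least, with 0.847. The 100 most abundant gene models took 24.3%, 20.5% and 20.7% of counts at 1 d and 24.9%, 20.7% and 21.8% at 3 d, against 25.4% to 26.6% in the control. Of 7 such library measures, the TMM factor alone separated the days (two-sided exact permutation p = 0.1, the lowest that 3 against 3 can give, adjusted p = 0.7), with means of 1.01 and 1.03, and the other p-values were 0.5 or more.

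Between 1 d and 3 d of UV-B a small share of the tested transcripts was called as changed, in similar numbers in both directions. Transcripts of 426 genes rose, 2.33% of those tested, and 411 fell, 2.25%, which together make 4.58% (edgeR's quasi-likelihood test, Benjamini-Hochberg adjusted p under 0.05). In the same test 3722 of the 18265 genes had an unadjusted p under 0.05, so the share called need not be the share that changed. The log2 fold changes of the fallers had a median of -1.10 and quartiles of -1.73 and -0.66, and those of the risers a median of 0.87 and quartiles of 0.61 and 1.37. Of the risers, 242 changed less than 2-fold, 50 at least 4-fold and 27 at least 8-fold. Of the fallers, 184 changed less than 2-fold, 78 at least 4-fold and 25 at least 8-fold. No called gene was without counts at either day, so no transcript was called as switched fully on or off. In bulk foliage, a change in the share of a cell type and a change in transcript per cell cannot be told apart. The 3 libraries of each day did not overlap for 417 of the risers and 398 of the fallers, and for 22.3% of all tested genes.

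**Figure D1:**
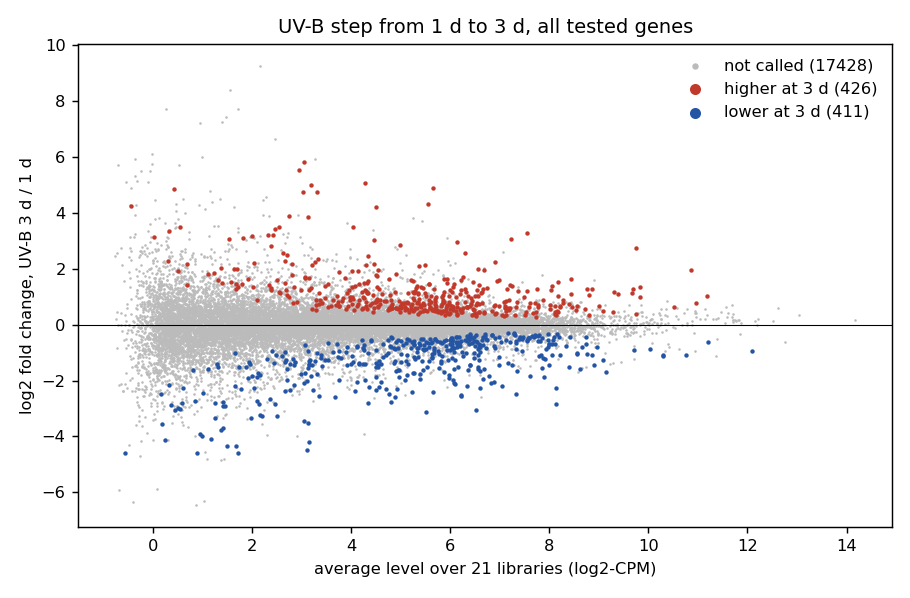
Log2 fold change of 3 d over 1 d of UV-B (vertical) against average level over the 21 libraries in log2-CPM (horizontal) for the 18265 tested genes. The 426 called risers (red) and 411 called fallers (blue) lie on both sides of 0 at all levels, and most low genes with large folds were not called (grey).

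The count of 837 depended on the fit and on single libraries. It was 1563 with DESeq2, 513 in limma voom with weights by group and 166 (45 risers and 121 fallers) in a fit of the 6 libraries alone. The main fit pools replicate spread over groups that differ in it, from 13.8% in the control to 41.1% at 3 d of UV-C. Whether this pooling made the difference between 837 and 166 was not tested. Testing against a log2 fold change of 1 left 3 calls. It was 225 and 457 without replicate 2 or 3 of 1 d, and 247 and 402 without replicate 2 or 3 of 3 d. No gene among the 837 changed sign under the 15 other fits run. These fits reuse libraries that chose the genes, most of which do not overlap between days, so a change of sign was hardly possible. Of the 837, 163 (87 risers and 76 fallers) were called in each of the 6 fits that leave out 1 library of the step.

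Calls were more frequent among abundant transcripts, and below 8 log2-CPM the standard error of the fold change was smaller at higher levels. Of 5039 genes with an average of 0 to 2 log2-CPM, 0.456% rose and 0.794% fell, and the median standard error of their log2 fold change was 0.60. Of 4910 genes between 5 and 8 log2-CPM, 4.34% rose and 4.36% fell, with a median standard error of 0.15. Among the 636 genes of 8 log2-CPM or more, 42 rose and 33 fell. The called genes of 5 to 8 log2-CPM had median log2 fold changes of 0.72 and -0.78, and those of 0 to 2 log2-CPM had 1.93 and -2.80, the size that their wider error demands for a call. For 9212 genes, 50.4% of those tested, the 95% interval of the log2 fold change lay within -1 and 1, so a 2-fold step lay outside the interval. That number includes 248 called genes. For the other 9053 genes a step of 2-fold or more was not excluded by the interval at this depth and spread.

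Summed over genes, the step lowered one pool of transcripts and raised another, and the 15 libraries outside the step show where both pools stood before and after. The 411 fallers took 6.50%, 8.06% and 7.05% of all counts in the 3 libraries of 1 d and 3.72%, 3.42% and 3.90% in those of 3 d. In the control they took 4.19%, 3.93% and 3.88%, and at 7 d of UV-B 4.18%, 3.52% and 3.53%. Among the UV-B time course the pool was high in the 1 d libraries alone, which the choice of genes favours. Its control, 3 d and 7 d values overlapped. In the UV-C groups its share was 4.93% ± 0.23 (SD, n = 3) after 1 d, 4.38% ± 0.40 after 3 d and 3.42% ± 0.43 after 7 d.

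The 426 risers showed the mirrored course. They took 2.89%, 2.33% and 2.67% of counts at 1 d and 4.78%, 5.34% and 5.15% at 3 d. Control libraries held 4.35%, 4.32% and 4.76%, and 7 d libraries 4.39%, 4.87% and 4.83%. All 1 d libraries lay below all control libraries, and all 3 d libraries lay above them, the lowest by a narrow margin (4.78% against 4.76%). Under UV-C the share of the risers was 3.86% ± 0.031 after 1 d, 4.90% ± 0.35 after 3 d and 5.23% ± 0.43 after 7 d. The genes were chosen on the 1 d and 3 d libraries, so the gap between these days is a description. That choice also favours extreme values at 1 d or 3 d, so the gaps of these days to the other groups are descriptions too. The libraries of the other groups took no part in the contrast, though they took part in filtering, scaling and the pooled estimate of replicate spread.

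**Figure D2:**
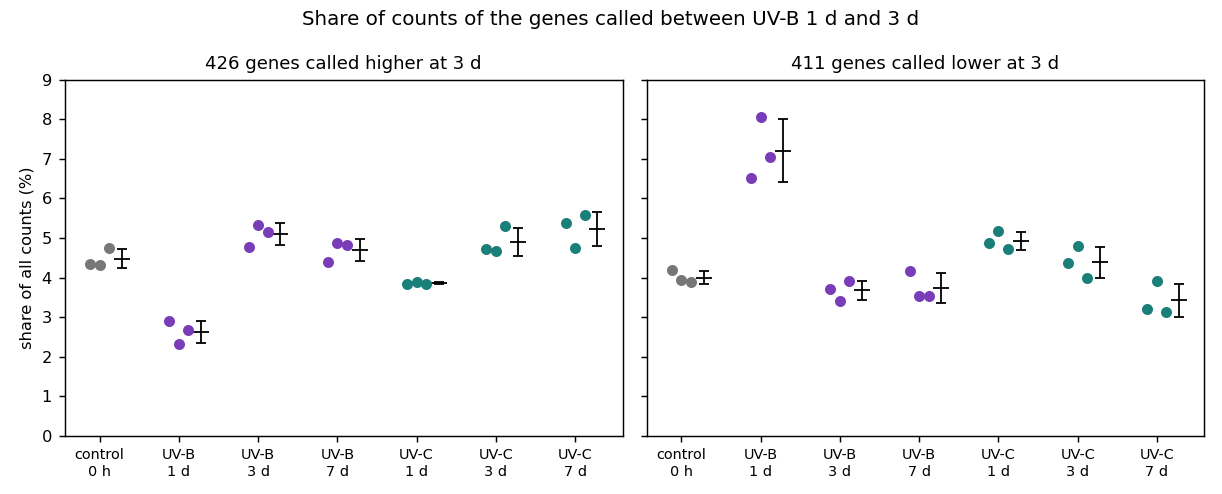
Share of all counts (%, vertical) taken by the 426 risers (left) and the 411 fallers (right) in each library of the 7 groups, with the mean and SD of 3 libraries beside the points. The 1 d UV-B libraries stand apart from all other groups, low for the risers (2.33% to 2.89%) and high for the fallers (6.50% to 8.06%). Both sets were chosen on the 1 d and 3 d libraries of UV-B, which favours this gap.

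The course of the sums was also seen in the median gene of the called risers and fallers. Genes chosen from the 6 libraries alone showed it in sum, but the median gene of their risers did not. Set against the control, 20.6% of all tested genes were higher and 17.3% lower at 1 d (37.9% in all), and 17.5% were higher and 15.1% lower at 3 d (32.6% in all). The fallers had median log2 fold changes over the control of 0.79 after 1 d, -0.10 after 3 d and -0.09 after 7 d, and the risers had -0.53, 0.30 and 0.20. These comparisons share the control libraries, and the first 2 use the libraries that chose the genes. The 121 fallers called without any other group in the fit took 2.26% ± 0.29 of counts at 1 d and 0.815% ± 0.073 at 3 d, beside 0.877% ± 0.058 in the control and 0.845% ± 0.16 at 7 d. The 45 risers called in that fit took 0.274% ± 0.022 at 1 d and 0.840% ± 0.095 at 3 d, beside 0.571% ± 0.050 in the control and 0.713% ± 0.12 at 7 d. Gene by gene these 45 stood nearer the control at 1 d than their sum did, with a median log2 fold change over the control of -0.08 at 1 d and 1.18 at 3 d. Both choices of genes were added after seeing the data.

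Few genes carried much of the summed change. In CPM on TMM-scaled library sizes, the risers went from 26160 at 1 d to 49624 at 3 d, a ratio of 1.90. The fallers went from 71802 to 35876, a ratio of 0.500. The 10 risers with the largest difference in CPM made 30.4% of the summed difference, and the 10 such fallers 33.0%. It took 31 risers and 27 fallers to reach 50%.

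The 4 gene models followed were taken from called genes that average at least 2 log2-CPM and do not overlap between the days. The riser of the largest fold among these was PITA_000071636-RA, which had few counts at 1 d. Its level was 0, 0.661 and 0.287 CPM in replicates 1 to 3 of 1 d, from 0, 5 and 2 counts, and 12.6, 2.49 and 32.2 CPM at 3 d, from 90, 19 and 250 counts. The days did not overlap, but the 3 d libraries spread widely. The log2 fold change was 5.52 ± 1.03 (SE, edgeR adjusted p = 0.00649), with an adjusted p of 0.078 in the fit of the 6 libraries alone and 0.325 in limma voom. Control libraries held 1 count in all. The transcript stood at 6.13 to 13.1 CPM at 7 d of UV-B, 0.405 to 1.68 CPM at 1 d of UV-C, 2.21 to 14.4 CPM at 3 d of UV-C and 9.93 to 25.8 CPM at 7 d of UV-C. It was thus higher in every 3 d and 7 d library of either band than in any 1 d or control library.

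Among the same genes, the riser with the largest gain in CPM was PITAhm_001053-RA, which was low at 1 d of UV-B. It measured 324, 426 and 595 CPM at 1 d and 1605, 1593 and 2071 CPM at 3 d, a log2 fold change of 1.97 ± 0.26 (adjusted p = 0.00066). The 1 d libraries lay below all 18 others. Control libraries held 1289 to 1774 CPM, within which 2 of the 3 d libraries fell, and 7 d libraries held 915 to 1652 CPM. Under UV-C it stood at 1516 to 1844 CPM at 1 d, 2978 to 3311 CPM at 3 d and 2309 to 4002 CPM at 7 d, so no UV-C library was as low as those of 1 d of UV-B. The difference between the steps of the bands did not pass the test for this gene (adjusted p = 0.158).

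The faller of the largest fold among them was PITA_000073570-RA, which was low in the control and high at 1 d. It measured 24.0, 54.3 and 37.6 CPM at 1 d and 2.38, 2.36 and 0.387 CPM at 3 d, a log2 fold change of -4.50 ± 0.89 (adjusted p = 0.00955). Control libraries held 0.136 to 1.65 CPM and 7 d libraries 0.133 to 3.00 CPM, so the level of 3 d overlapped both. Under UV-C it stood at 4.39 to 14.2 CPM at 1 d, 0.521 to 8.28 CPM at 3 d and 0.143 to 0.598 CPM at 7 d. Every 1 d library of UV-B exceeded every library of the other groups.

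Among them, the faller with the largest loss in CPM was PITA_000032619-RA. It measured 5700, 6784 and 6983 CPM at 1 d and 3525, 2611 and 3916 CPM at 3 d, and the days did not overlap. Its log2 fold change of -0.95 ± 0.23 had the highest adjusted p of the 4 (edgeR, adjusted p = 0.0282) and the smallest standard error. It was no longer called without replicate 2 or 3 of 1 d or replicate 1 or 2 of 3 d (adjusted p = 0.0983, 0.078, 0.06 and 0.133), in the fit of the 6 libraries alone (0.0953) or in limma voom (0.0579). Control libraries held 3577 to 4938 CPM and 7 d libraries 3048 to 4635 CPM, both overlapping the 3 d level. Under UV-C it held 3577 to 4872 CPM at 1 d, 4451 to 5283 CPM at 3 d and 2799 to 5232 CPM at 7 d, all below the 1 d libraries of UV-B. None of the 4 gene models was called when tested against a log2 fold change of 1 (edgeR adjusted p of 0.212, 0.212, 0.221 and 1 in the order described).

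**Figure D3:**
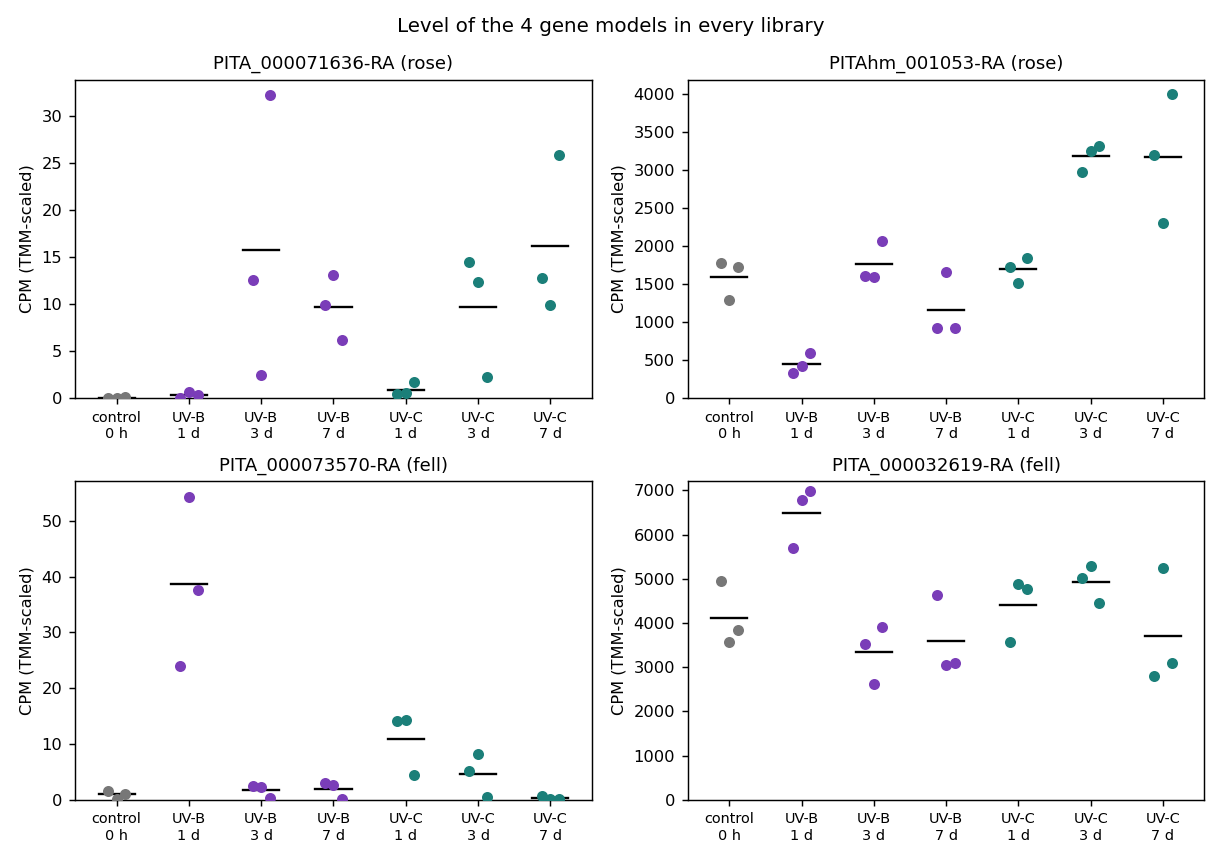
CPM on TMM-scaled library sizes (vertical, linear) of the 4 gene models in each library of the 7 groups, with bars at the mean of 3 libraries. Both fallers and PITAhm_001053-RA have their extreme UV-B values at 1 d, whereas PITA_000071636-RA is near 0 in the control and 1 d groups and above 2 CPM in all 3 d and 7 d libraries. The 4 were chosen on the 1 d and 3 d libraries of UV-B, which favours extremes there.

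The contrast of 7 d of UV-B with the control uses no library of the step and divides the called genes by where they stood afterwards. Genes above the control at 7 d made up 122 of the 426 risers (28.6%), against 10% of all tested genes, and genes below it 50 (11.7%), against 8.38%. Among the 411 fallers, 37 (9.0%) were above the control at 7 d and 59 (14.4%) below it. These shares are set against all tested genes, which are not matched to the called genes for level. The 7 d contrast called 18.4% of the tested genes, 3365 in number, with 2154 and 1933 without replicate 1 or 2 of the control. The remaining 254 risers and 315 fallers were not called at 7 d.

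The 122 risers above the control at 7 d took, in sum, little more of the counts at 1 d than in the control. They took 0.609%, 0.527% and 0.556% of counts at 1 d, close to the 0.503% to 0.550% of the control, and 1.04%, 1.31% and 1.27% at 3 d. At 7 d they took 0.955% to 1.17%. Their median gene had a log2 fold change over the control of 0.05 at 1 d (quartiles -0.16 and 0.68, so some were already higher) and 1.15 at 3 d, and under UV-C of 0.07, 0.76 and 0.75 after 1, 3 and 7 d.

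The 50 risers that were below the control at 7 d were, in sum, lowest at 1 d and nearer the control at 3 d. They took 0.609%, 0.480% and 0.571% of counts at 1 d, 0.912%, 0.962% and 0.860% at 3 d and 0.853% to 0.970% at 7 d, all under the 1.36% to 1.43% of the control. Among the fallers, the 37 that stayed above the control went from 0.514% to 0.564% of counts at 1 d to 0.264% to 0.284% at 3 d and 0.252% to 0.273% at 7 d, beside 0.129% to 0.142% in the control. In sum those genes stood highest at 1 d and stayed above the control afterwards. The 59 fallers below the control at 7 d were in sum near the control at 1 d and lower afterwards: 0.624% to 0.746% at 1 d overlapped the 0.715% to 0.790% of the control, and 0.429% to 0.445% at 3 d overlapped the 0.443% to 0.460% of 7 d. The step and the 7 d contrast chose all 4 sets, so their values at 1 d, 3 d, 7 d and in the control are descriptions.

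Genes were also sorted by contrasts that use none of the 6 libraries, and their log2 fold changes in the UV-B step were then compared with those of all tested genes. After 1 d of UV-C, 5.94% of the tested genes differed from the control. Of the 676 above it (3.7% of those tested), 74 fell in the UV-B step and 6 rose, 10.9% and 0.888% against 2.25% and 2.33% of all tested genes. Their median log2 fold change from 1 d to 3 d of UV-B was -0.35, against 0.00 over all tested genes (-0.0032), and 71.9% lay below 0. Below the control at 1 d of UV-C were 409 genes (2.24% of those tested). Of these, 46 rose in the UV-B step (11.2%) and 2 fell (0.489%), with a median of 0.19. Their median log2 fold changes over the control at 1 d and 3 d of UV-B were 1.85 and 1.43 for the 676 genes and -0.77 and -0.58 for the 409, nearer the control at 3 d in both. In counts, the 409 took 3.84%, 3.20% and 3.40% at 1 d and 4.29%, 4.35% and 4.20% at 3 d, below the 5.33% to 5.57% of the control and without overlap between the days. The 676 took 3.86%, 5.49% and 4.99% at 1 d and 2.97%, 3.90% and 3.93% at 3 d, where replicate 1 of 1 d overlapped the 3 d libraries, beside 1.59% to 1.61% in the control.

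Among genes above the control at 7 d, rises in the step outnumbered falls. Of the 1835 such genes of UV-B, 122 rose in the step and 37 fell, 6.65% and 2.02%, with a median log2 fold change of 0.20. Their median log2 fold change over the control had already reached 1.40 by 1 d of UV-B, beside 1.66 and 1.63 after 3 d and 7 d. Of the 1162 above the control at 7 d of UV-C (6.36% of those tested), 96 rose (8.26%) and 15 fell (1.29%), with a median of 0.20. Of the 1530 genes below the control at 7 d of UV-B, 50 rose in the step (3.27%) and 59 fell (3.86%). Their median in the step was -0.01, and their median over the control was -0.82 at 1 d and -0.81 at 3 d. Of the 1121 below it at 7 d of UV-C (6.14%), 22 rose (1.96%) and 40 fell (3.57%), with a median of 0.01. Genes above the control at 3 d of UV-C (15.2% of those tested) numbered 2777, of which 121 rose (4.36%) and 64 fell (2.30%). Of the 1931 below it (10.6%), 43 rose (2.23%) and 40 fell (2.07%), near the 2.33% and 2.25% of all tested genes. Calls in the step varied with the library left out, but falls outnumbered rises among genes above the control at 1 d of UV-C (17 to 108 against 1 to 11) in each of 12 such fits. That set held 122 to 225 genes without 1 control library or without replicate 1 or 2 of 1 d of UV-C, 979 without replicate 3 of it, and its median lay between -0.44 and -0.28 in all 12. The median of genes below the control at 1 d of UV-C was 0.29 without replicate 1 of 1 d of UV-B, and that of genes above it at 7 d of UV-C was 0.13 without replicate 3 of that group. The sets share control libraries among themselves, so they are not separate evidence. They were also not matched to all tested genes for level.

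**Figure D4:**
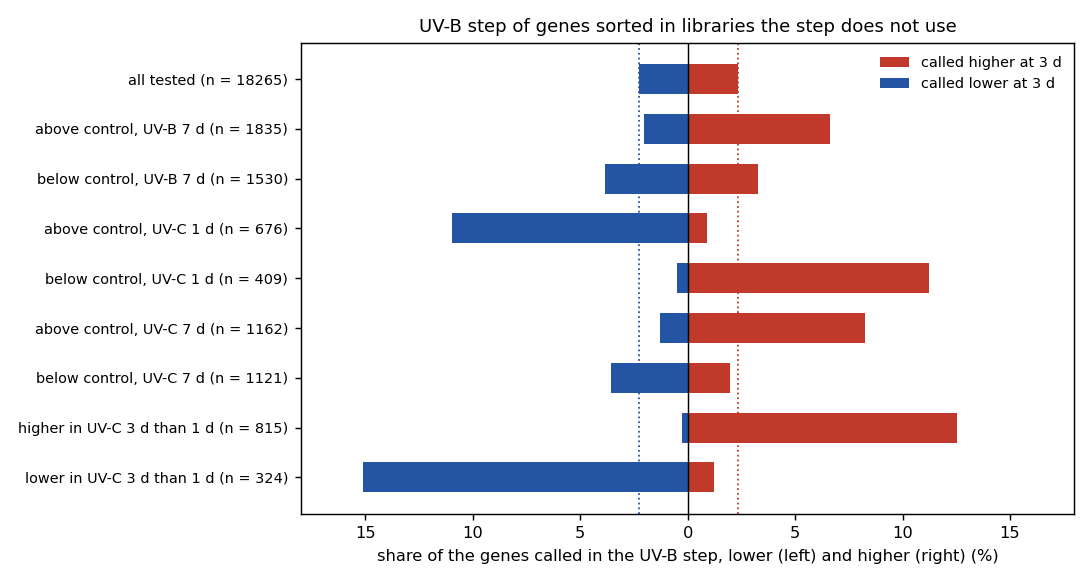
Share of genes (%, horizontal) called lower (blue, left) or higher (red, right) from 1 d to 3 d of UV-B, for all tested genes and for genes called in contrasts that use none of the 6 libraries of the step; dotted lines mark all tested genes. Among genes above the control at 1 d of UV-C, more were called lower (10.9%) than higher (0.888%), and among genes above it at 7 d of UV-B or UV-C more were called higher (6.65% and 8.26%) than lower (2.02% and 1.29%).

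Under UV-C, the step from 1 d to 3 d called 1139 genes (6.24% of those tested), of which 815 rose and 324 fell, and it shares no library with the UV-B step. Of the 426 UV-B risers, 102 also rose under UV-C and 4 fell, 23.9% and 0.939% against 4.46% and 1.77% of all tested genes. The 102 are 12.5% of the UV-C risers. Of the 411 UV-B fallers, 49 also fell under UV-C (11.9% of the UV-B fallers and 15.1% of the UV-C fallers) and 2 rose. All tested genes are not matched to the called genes for level (median log2-CPM 3.53, against 5.45 for UV-B risers and 5.55 for UV-B fallers). Both steps also use the same pooled estimate of replicate spread. The median UV-C log2 fold change was 0.31 for the UV-B risers and -0.22 for the UV-B fallers. Over the 18265 genes, which are not independent replicates and share the scaling, the log2 fold changes of the 2 steps correlated at r = 0.29 (Pearson) and rho = 0.21 (Spearman). The sign was the same for 75.6% of the 837 called genes and for 56.6% of all tested genes. The UV-C count was 42 and 101 without replicate 1 of 1 d or replicate 2 of 3 d of UV-C, 471 and 525 without replicate 3 of 1 d or replicate 1 of 3 d, 2534 without replicate 3 of 3 d, and 1 in a fit of its 6 libraries alone. Without replicate 3 of 3 d of UV-C, the UV-B step called higher 159 and lower 18 of the 1503 UV-C risers.

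Tested directly, the steps of the bands differed for 13 genes (0.0712% of those tested, edgeR's quasi-likelihood test of the interaction), with 3016 genes at an unadjusted p under 0.05. For 3 genes (0.0164%) the UV-B step was the higher one, with a median log2 fold change of 1.17 under UV-B and 0.10 under UV-C, and UV-B called all 3 higher. For the other 10 (0.0547%) it was the lower one, with medians of -1.31 under UV-B and 0.98 under UV-C. UV-B called 7 of those 10 lower, and UV-C called 5 of them higher. This number was set by single libraries: it was 1080 without replicate 3 of 3 d of UV-C, 399 without replicate 1 of 1 d of UV-B, and 1 without replicate 2 of 1 d of UV-B, replicate 1 or 2 of 3 d of UV-B or replicate 3 of 1 d of UV-C. It was 2 without replicate 1 of 1 d of UV-C, and 7 and 6 without replicate 1 or 2 of 3 d of UV-C. For genes outside the 13, passing in one band and not in the other does not show that the steps differ.

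**Figure D5:**
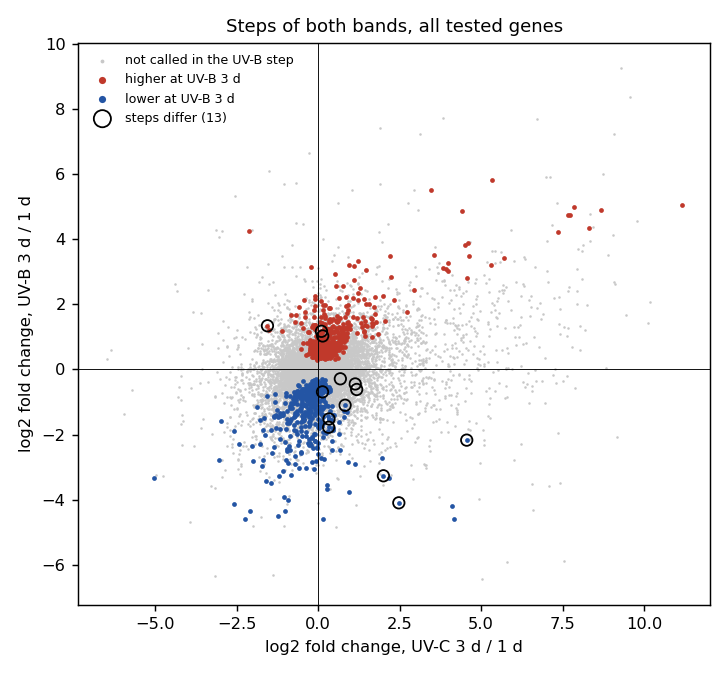
Log2 fold change of 3 d over 1 d under UV-B (vertical) and under UV-C (horizontal) for the 18265 tested genes, which share no library between the axes. The 426 UV-B risers (red) lie mostly right of 0 and the 411 UV-B fallers (blue) mostly left of it, with the 13 genes whose steps differed circled.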

How the data were processed

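Poly(A) RNA of Pinus tabuliformis foliage was sequenced from both ends (150 bp each) and trimmed with Trimmomatic 0.36, per the labels' protocols. The submitters' processing notes name featureCounts 1.5.3 for counting. For the aligner, reference, annotation, strand setting and multi-mapped reads, nothing is stated in these sources. Near-identical gene copies may share or lose reads. The authors deposited raw counts without normalization: 84525 gene models in 21 libraries, 45122 of them at 0 throughout.

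Differences were tested with edgeR 4.0.16 in R 4.3.3 (two-sided quasi-likelihood F-test) on all 21 libraries with 1 mean per group, TMM scaling and filterByExpr, which left 18265 genes. A gene was called where its p, adjusted by Benjamini-Hochberg, was under 0.05. Standard errors are |log2 fold change| over the root of F, and 95% intervals use the fit's degrees of freedom. Counts of 2-, 4- and 8-fold changes place a group at 0 counts at the bound of 3 counts. Levels are CPM on TMM-scaled totals. Correlations between libraries use log2-CPM, prior count 2. The main edgeR fit was run on a simulated data set, for the UV-B step only, and the outcome is not reported here. That simulation gave a gene the same spread in every group, so it cannot test the effect of unequal spread. No replicate pair was as close as counting error alone allows (chi-square over its degrees of freedom 10.9 to 32.4).

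Gene models followed have at least 2 log2-CPM on average, a call and no overlap between days (393 risers and 357 fallers); in each direction they are the one with the largest log2 fold change and the one with the largest CPM difference. Genes and sets were chosen with earlier results of these data known. Alternatives were other scalings (DESeq2 size factors, upper quartile), other filters, DESeq2 1.42.0, limma 3.58.1 voom, fits of the compared groups alone, testing against a log2 fold change of 1, the replicate number as a block, plain totals and leaving out each library.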

Additional observations from a re-analysis of the deposited data

Results flagged for a closer look

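The step from 1 d to 3 d differed between UV-B and UV-C for 13 genes by the interaction test, which is the difference between groups singled out here. In 10 of them the UV-B step was the lower one. Groups of 3 libraries are too small for the search for outlying samples that was set for larger groups.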

How the results depend on the processing

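With a minimum log2 fold change of 1, the calls fell to 3 for the UV-B step, 0 for the UV-C step (edgeR, 1034 at an unadjusted p under 0.05, 2007 with DESeq2), 0 for the difference of the steps (792 unadjusted, 618 with DESeq2) and 436 for 7 d of UV-B over the control. In fits of only the groups compared they were 166, 1 and 0 (2061 unadjusted in edgeR) for the UV-B step, the UV-C step and their difference. DESeq2 gave 1563, 2007 and 618, and limma voom with group weights 513, 86 and 1, with 5060 for 7 d. The difference of the steps called 56 genes with DESeq2 size factors and 376 with no filter on low counts. Leaving out 1 library gave 225 to 1007 calls for the UV-B step, 42 to 2534 for UV-C, 1 to 1080 for their difference and 1933 to 2610 for 7 d. The cause was not tested.

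Among genes sorted in other libraries, the median UV-B step of the 6 sets recomputed kept its sign under each alternative that gave a value. The sets below the control at 7 d and those of 3 d of UV-C were not recomputed. With a minimum log2 fold change of 1 the medians were -0.88 and 0.68 for genes above and below the control at 1 d of UV-C, 0.66 for those above it at 7 d of UV-B and 0.84 at 7 d of UV-C. The last was 0.29 with no filter on low counts, 0.11 in fits of the groups compared and 0.13 in limma voom. The UV-C risers had 0.83 (1 gene) in the fit of their groups, and the UV-C fallers -0.49 in limma voom. A minimum log2 fold change of 1 left no UV-C risers or fallers to summarise, and the fit of their groups no fallers. Leaving out 1 library gave -0.44 to -0.28 and 0.13 to 0.29 for the genes above and below the control at 1 d of UV-C. It gave 0.18 to 0.26 for genes above it at 7 d of UV-B, 0.13 to 0.30 at 7 d of UV-C, 0.24 to 0.63 for UV-C risers and -0.79 to -0.12 for UV-C fallers.

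With the replicate number as a block, the UV-B step called 776 genes, the UV-C step 1023, their difference 13 and 7 d against the control 3307, and no followed gene lost its call. Deviations of same-numbered libraries of 1 d and 3 d of UV-B correlated at 0.028, 0.22 and -0.31. The highest value between different numbers was 0.33. With 3 libraries per group, these values cannot settle whether the numbers pair the samples.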

Other observations

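Gene models fall into 3 forms of identifier. Of 16363 tested models whose identifiers begin with PITA_, 357 rose and 363 fell from 1 d to 3 d of UV-B (4.4% called). Of 1413 beginning with PITAhm, 57 rose and 44 fell (7.15%), and of 489 with other forms, 12 rose and 4 fell (3.27%). The forms were not matched for level. Among 21138 gene models that had counts but too few to test, at most 0.321% of a library's counts, 129 had counts in all 3 libraries of 1 d and in none of 3 d, and 119 the reverse.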
